A study of Mus musculus with 3 samples.

Results

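The 30 genes described here handle fatty acids and cholesterol in the leukocytes of infarcted mouse hearts. They were chosen by name from a list and fall into 4 groups by role: 15 genes of mitochondrial fatty acid oxidation, 8 genes of fatty acid uptake, activation, storage and release, 3 genes of cholesterol efflux and 4 transcriptional regulators. All 30 were found in the deposited tables, which name 29298 genes, and all 30 passed the low-count filter in each of 7 comparisons. Polyadenylated RNA was read from single CD45-selected cells on the BD Rhapsody platform, in 3 libraries that pooled cells of 7, 5 and 6 sample tags. The mice were F7fl/fl animals carrying CX3CR1Cre and F7fl/fl WT animals, so both genotypes share the loxP-flanked alleles of coagulation factor VII, and Cre is driven by the gene of the chemokine receptor CX3CR1. Hearts were taken at several times after permanent ligation of a coronary artery. The labels and file headers used here give no genotype, time or age to a tag, and genotypes and times were therefore not compared. The run name of library 1 contains "d3", which may name a day for that whole pool. Its meaning is not stated, so a difference between library 1 and the others may also be one of time.

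Fatty acids reach a macrophage from lipoproteins and from engulfed dying cells. Lipoprotein lipase (Lpl) frees them outside the cell, transporters and binding proteins carry them in, acyl-CoA synthetases activate them, and they are then stored in droplets, built into membranes or carried into mitochondria by the carnitine palmitoyltransferases Cpt1a and Cpt2. Inside, acyl-CoA dehydrogenases (Acadl, Acadm, Acadvl), the trifunctional protein (Hadha, Hadhb) and thiolases shorten the chain step by step, and the electron transfer flavoproteins (Etfa, Etfb, Etfdh) pass the electrons to the respiratory chain. Cholesterol from engulfed cells is freed by lysosomal acid lipase (Lipa) and leaves through the transporters Abca1 and Abcg1 or on apolipoprotein E (Apoe). The liver X receptor Nr1h3 and the receptor Pparg are known to switch on parts of both arms in macrophages.

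The promoters were looked at because the text returns to a gene pair and to 2 single genes. Hadha and Hadhb, which encode the alpha and beta subunits of the trifunctional protein, lie head to head on chromosome 5 and are 85 bases apart in GENCODE M21 on GRCm38. Abca1 is shown as an efflux gene and Acadm as an oxidation gene. Sequences are from RefSeq on GRCm38.p6, 5′ to 3′ on the gene's strand. For the pair, the plus strand of the gap is given, and for the other genes the 250 bases before the start.
Hadha to Hadhb gap, chr5:30155163-30155247: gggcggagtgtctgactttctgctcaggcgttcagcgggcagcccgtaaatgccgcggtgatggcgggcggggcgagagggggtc
Abca1, chr4:53159896-53160145, minus strand: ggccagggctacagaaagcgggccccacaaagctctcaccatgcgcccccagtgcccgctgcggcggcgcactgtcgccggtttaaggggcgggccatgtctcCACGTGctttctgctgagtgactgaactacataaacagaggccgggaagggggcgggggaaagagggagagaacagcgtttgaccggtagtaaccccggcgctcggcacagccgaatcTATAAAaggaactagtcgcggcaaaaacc
Acadm, chr3:153944644-153944893, minus strand: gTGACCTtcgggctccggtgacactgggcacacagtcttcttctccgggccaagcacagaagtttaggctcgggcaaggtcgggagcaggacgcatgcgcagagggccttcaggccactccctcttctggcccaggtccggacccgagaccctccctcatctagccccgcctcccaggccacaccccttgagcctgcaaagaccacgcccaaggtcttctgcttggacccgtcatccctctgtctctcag
Capitals mark matches on either strand to 3 motifs: the nuclear receptor half-site AGGTCA, the E-box CACGTG and the TATA sequence TATAAA. The gap of 85 bases held none of them and had a GC content of 69.4%. In the Abca1 window the E-box began 147 bases and the TATA match 29 bases before the start, and in the Acadm window the half-site, read on the opposite strand, began 249 bases before it. Of the 30 genes, 22 had a promoter window in the table. AGGTCA was present in 6 of these 22 (Acadm, Acadvl, Cpt1a, Echs1, Plin2 and Pparg) and in 14% of all 32851 windows. CACGTG was present in 2 of 22 (Abca1 and Slc27a1) and in 6.02% of all windows, and TATAAA in 4 of 22 (Abca1, Apoe, Lipa and Pparg) and in 12.4%. The 22 genes had 30 windows and a match in any of them counted, so shares of genes and of windows are not fully alike. Exact copies of the direct repeats of the half-site named DR1 and DR4, bound by PPAR and LXR heterodimers respectively, were also sought. They were in no window of the 22 genes and in 0.0335% and 0.0152% of all windows. Repeats that depart from the exact letters were not sought, so no gene can be said to lack such a site.

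Of 25762 cells, 25640 had at least 200 genes, and each was placed in the first class whose gate it met: T cell, B cell, neutrophil, macrophage (C1qa, C1qb and C1qc at 0.1% or more of its molecules), dendritic cell (Flt3) or monocyte (Ly6c2). This gave 15023 macrophages, 2427 monocytes, 1371 dendritic cells, 1225 T cells, 779 B cells and 488 neutrophils, and 4327 cells in no class. Each tag held 695 to 2494 kept cells and 10136595 to 62344127 molecules (deduplicated counts). Library 1 gave 2227 of the 2427 monocytes. Markers that the gates did not use followed the class names: the 6 macrophage markers summed to 4173 CPM (a gene's share of the class's molecules in a tag, scaled to a common total, median over tags) in macrophages, the 5 monocyte markers to 5470 CPM in monocytes and the 5 neutrophil markers to 12650 CPM in neutrophils. Monocytes also carried macrophage markers at 2454 CPM, and 637 of the 1225 T cells met a second gate of the B cell, neutrophil or macrophage class. In macrophages the 3 fat cell markers summed to 1.80 CPM, the 4 heart muscle markers to 4.05 CPM and the 4 fibroblast markers to 150 CPM (43.8 to 589 CPM over tags). Over all macrophages pooled, Adipoq, the defining gene of fat cells, was at 0.0434 CPM and Myh6 of heart muscle at 0.163 CPM. The libraries differ in beads and pipeline release, and intronic reads were kept in library 1, while the headers of the others state no such setting. Values per library are therefore given beside the results they touch. Libraries 1 and 2 shared 4 cell numbers, libraries 1 and 3 shared 3, and libraries 2 and 3 none.

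Within macrophages, most oxidation genes varied less across tags than most lipid uptake genes. Cpt1a, the gate of entry into oxidation, had 125 CPM in the lowest of 18 tags, 153 CPM at the median and 174 CPM in the highest. Acadm, the medium-chain dehydrogenase, had 63.8, 70.9 and 77.2 CPM, and Hadhb had 61.3, 65.9 and 76.0 CPM. The highest tag was under 2 times the lowest for 14 of the 15 oxidation genes, and their median ratio was 1.52. The exception was Etfb with a ratio of 3.41, and it followed the library: its median was 6.50 CPM over the tags of library 1, 15.5 CPM over those of library 2 and 10.9 CPM over those of library 3, and within a library its highest tag was at most 1.52 times the lowest. Acat1, Etfa, Etfdh and Hadha also differed by library, with every tag of library 1 above every other tag. Acat1 had at least 57.0 CPM in library 1 and at most 45.8 CPM elsewhere. Acadvl was lower in every tag of library 1 (at most 35.1 CPM) than in any other tag (at least 36.2 CPM).

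The uptake, activation, storage and release genes had a median ratio of 2.98 between the highest and the lowest tag, and 2 of these 8 were under 2. Those were Acsl1 (1.65) and Plin2 (1.79), which varied less than the oxidation gene Acat1 (1.84). Fabp4, a fatty acid binding protein of macrophages and fat cells, ran from 14.3 CPM through a median of 44.0 CPM to 182 CPM, a ratio of 12.7. Fabp5, its epidermal-type relative encoded 187480 bases away on chromosome 3, ran from 492 CPM through 1596 CPM to 3721 CPM. Every tag of library 1 was above every tag of the other libraries in both genes, with 73.0 CPM of Fabp4 in the lowest tag of library 1 and 49.4 CPM in the highest tag elsewhere. Spread remained within libraries: over the 6 tags of library 3 the highest tag had 3.55 times the Fabp5 level of the lowest. Lpl ran from 305 CPM through 516 CPM to 1231 CPM, with library medians of 724, 422 and 425 CPM. Apoe went the other way between libraries, with 4128 to 5332 CPM in library 1, against 6784 to 13310 CPM in the tags of library 2 and 6691 to 13775 CPM in those of library 3. Whether beads, pipeline, time after infarction or genotype moved these genes, or the oxidation genes named above, between libraries cannot be told apart. Reads of Fabp5 may be shared with its processed copies, and neither labels nor headers say how such reads were counted.

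Among the cells of a tag, several lipid uptake and efflux genes varied beyond counting noise. Cells were thinned to 2000 molecules, and the variance of each gene's count was divided by its mean, which gives 1 for counting noise alone. For the 15 oxidation genes the median of this ratio over tags lay between 0.980 and 1.1. It was 14.5 for Apoe, 7.02 for Fabp5, 4.42 for Lpl, 2.00 for Fabp4, 1.96 for Lipa and 1.71 for Plin2, the coat protein of lipid droplets, but only 1.07 for Acsl1 and 1.13 for Acsl4. The ratio grows with a gene's level, and the oxidation genes had at most a mean of 0.297 molecules per thinned cell, so little excess could show in them or in Nr1h3 (0.992). At a like mean, Fabp4 (0.122 molecules) had a ratio of 2.00 and Hadhb (0.124 molecules) of 1.04.

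**Figure D1:**
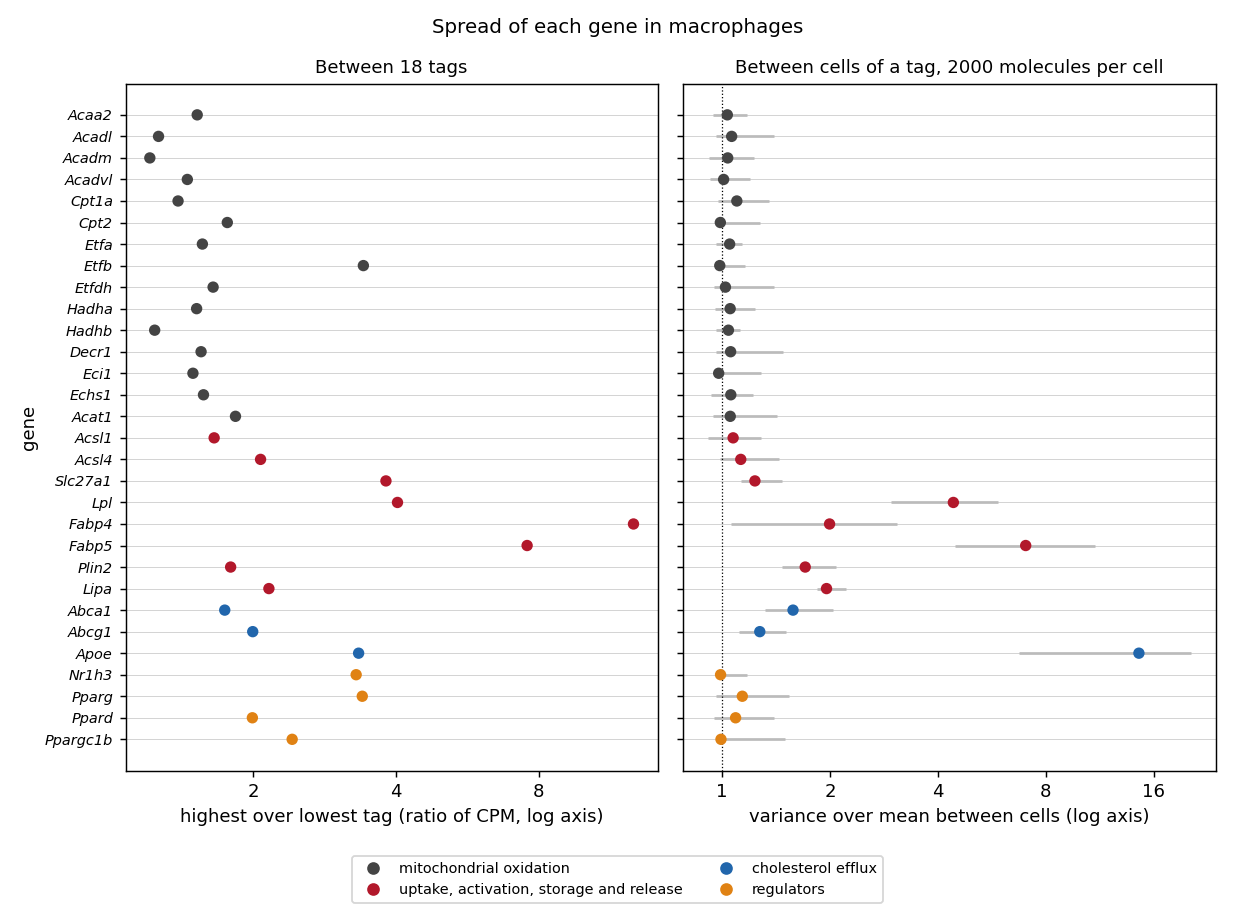
Each gene's spread in macrophages by role: left, the highest over the lowest of 18 tags (ratio of CPM, log axis); right, the variance over the mean between cells thinned to 2000 molecules (points are medians over tags, bars run from the lowest to the highest tag, log axis). The oxidation genes stay near 1 on the right, and Apoe, Fabp5 and Lpl reach 14.5, 7.02 and 4.42.

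Macrophages were compared with the monocytes of the same tag in 10 tags that held at least 20 cells of both classes (7 of library 1, 2 of library 2 and 1 of library 3). In this comparison 21 of the 30 genes were higher and 2 lower in macrophages at an adjusted p under 0.05 (edgeR quasi-likelihood test, Benjamini-Hochberg over all genes). Over all 11223 genes tested, 32% were higher and 31.4% lower (63.4% in all). The members' median log2 difference was 0.39, against 0.01 for all genes.

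Several lipid uptake and release genes differed widely from monocytes, as did the efflux gene Apoe, given below. Lpl had 305 CPM in the lowest macrophage tag, 655 CPM at the median and 1231 CPM in the highest, and 14.2, 145 and 329 CPM in monocytes. Macrophages were above monocytes in 10 of 10 tags, although the ranges overlapped, and the fitted difference was 4.64-fold (log2 2.21 ± 0.22 SE, adjusted p = 6.3e-07 in edgeR). The closest pair was a tag of library 2 with 305 CPM in macrophages and 275 CPM in monocytes. Lipa had 584 to 1260 CPM in macrophages and 212 to 540 CPM in monocytes, so the groups did not overlap (3.05-fold, adjusted p = 1.1e-09 in edgeR). Slc27a1, the fatty acid transport protein FATP1, was 3.53-fold higher with medians of 191 and 48.4 CPM. Fabp5 was 3.34-fold, Fabp4 3.63-fold and Plin2 1.30-fold higher, each in 10 of 10 tags. Acsl4, which activates long polyunsaturated fatty acids such as arachidonic acid, was the member of this group that was lower, by a log2 of −0.19 ± 0.06 (medians 84.4 and 91.4 CPM). That difference was −0.20 in library 1 and 0.03 in library 2 fitted alone, and it did not pass without library 1 (−0.05), without the tag block or without the low-count filter.

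Of the 15 oxidation genes, 11 were higher in macrophages and none was lower, with a median log2 of 0.29. Decr1, the reductase needed for chains with double bonds, led with 14.7 to 19.5 CPM in macrophages against 0 to 8.95 CPM in monocytes (2.80-fold, adjusted p = 1.8e-06 in edgeR). Acadm had 63.8 to 77.2 CPM in macrophages and 26.4 to 50.1 CPM in monocytes, again without overlap. Cpt2 was higher by 0.94 ± 0.19 and Cpt1a by 0.24 ± 0.07. Hadha was higher by 0.12 ± 0.05. The 4 oxidation genes that did not pass had differences of 0.07 ± 0.09 (Hadhb), −0.03 ± 0.07 (Etfdh), −0.02 ± 0.06 (Acadvl) and −0.10 ± 0.08 (Acat1). Every macrophage tag was above every monocyte tag in 5 of the 30 genes (Acadm, Cpt2, Decr1, Lipa and Apoe), as in 6.06% of all genes.

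Among efflux genes, Apoe was 3.55-fold and Abca1 1.72-fold higher in macrophages, and Abcg1 did not pass (0.19 ± 0.13). Among regulators, the coactivator Ppargc1b was higher by 1.18 ± 0.25 at low level (medians 5.46 and 2.89 CPM). Ppard, a fatty acid sensing receptor, was lower in macrophages, with 21.5 to 42.8 CPM against 20.4 to 60.1 CPM in monocytes (log2 −0.62 ± 0.08, adjusted p = 5.8e-06 in edgeR). It was lower in 9 of 10 tags. Without library 1, in the 3 tags of the other libraries, 8 genes were higher and none lower (background 4.86% and 4.43%, 9.29% in all): Decr1, Slc27a1, Lpl, Fabp4, Fabp5, Lipa, Abca1 and Apoe. Those 3 tags gave Lpl a log2 of 2.10, Slc27a1 2.23 and Lipa 1.76. The other 15 calls, those for Acadm (0.91, adjusted p = 0.058 in edgeR), Plin2 (0.54, 0.063), Cpt1a (0.45, 0.25) and Ppard (−0.23, 0.78) among them, were not made there, and Etfb had the opposite sign (−0.090, adjusted p = 0.952 in edgeR).

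Ordering cells by their share of C1q molecules showed where the levels differed. In the 987 monocytes with no C1q molecule, 955 of them from library 1, Lpl was at 121 CPM, and in the 1440 monocytes with some C1q it was at 198 CPM. It was at 714 CPM in macrophages with C1q at 0.1 to 0.3%, 739 CPM at 0.3 to 1% and 376 CPM at 1% or more. Slc27a1 had 33.5, 69.0, 175, 188 and 139 CPM. Library 1 gave 955 of the 987 cells of the first bin but 390 of the 2960 of the last, so the pooled order mixes libraries. Lpl was lower in the last bin than in the one before in each library (846 and 403, 464 and 395, and 490 and 344 CPM), whereas Slc27a1 was lower there in libraries 1 and 3 but not in library 2 (129 and 140 CPM). Apoe instead was highest at the upper end, with 1184, 1694, 3535, 6092 and 14911 CPM, and in library 1 alone it went from 1185 to 9047 CPM. Hadhb was between 61.8 and 69.0 CPM over the pooled bins. By library it ran from 59.8 to 68.8 CPM, from 48.7 to 77.8 CPM and from 60.8 to 72.4 CPM. Hadhb does not stand for all oxidation genes. Between the first and the last bin of library 1 alone, Decr1 went from 4.86 to 16.8 CPM and Acadm from 43.3 to 75.3 CPM. Etfdh had 38.4 and 39.0 CPM there, and Acat1 62.9 and 64.4 CPM. These are levels over all cells of a bin, and no test was made on them.

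Against neutrophils, 9 tags could be compared (5, 1 and 3 by library), with at most 79 neutrophils each. The whole transcriptome leaned towards macrophages here: all 10394 genes had a median log2 of 0.58, or 0.74 with DESeq2 size factors, so the members are read against that shift. Of the 30 genes, 24 were higher and 2 lower in macrophages in edgeR (all genes 39.9% and 19.8%, 59.7% in all), with a median log2 of 1.57. The oxidation genes stood 13 higher and none lower, with a median of 1.55. Hadha had 124 to 188 CPM in macrophages and 19.5 to 83.5 CPM in neutrophils (log2 1.74 ± 0.22, adjusted p = 3.0e-08 in edgeR). Acadm had 64.0 to 77.2 CPM against 0 to 50.3 CPM, and Echs1, the short-chain hydratase, 46.9 to 73.6 CPM against 0 to 46.4 CPM. Every macrophage tag was above every neutrophil tag in 12 of the 30 genes, 8 of them in oxidation, as in 18.8% of all genes. Neutrophil sums were thin: Cpt2 rested on 4 molecules, Etfb on 5, Decr1 on 6 and Ppargc1b on 1, so the size of their differences is poorly known. Cpt2 did not pass without any 1 of the libraries, and Etfb and Ppargc1b did not without library 1 or 3.

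Neutrophils had more of 2 members. Acsl1, an acyl-CoA synthetase, had 35.9 to 48.9 CPM in macrophages and 11.6 to 205 CPM in neutrophils (log2 −1.21 ± 0.25, adjusted p = 1.1e-04 in edgeR), and neutrophils were higher in 8 of 9 tags. Ppard had 25.9 to 42.8 CPM in macrophages and 30.7 to 176 CPM in neutrophils and was higher in neutrophils in 9 of 9 tags (log2 −1.36 ± 0.24). Both calls were lost in the 4 tags outside library 1, where the log2 difference was −0.69 for each gene (adjusted p = 0.14 and 0.23 in edgeR) and 17 genes were higher and none lower (background 23.7% and 13%, 36.7% in all). Plin2 had 538 to 965 CPM in macrophages against 285 to 577 CPM (log2 0.74 ± 0.16), beside the shift of 0.58 over all genes, and did not pass without library 1 (0.63, adjusted p = 0.058 in edgeR). Lpl was 12.5-fold and Fabp5 12.6-fold higher in macrophages. In neutrophils Lpl had 9.76 CPM in the lowest tag, 21.9 CPM at the median and 310 CPM in the highest.

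Against dendritic cells, in 16 tags, the oxidation genes had a smaller median difference than the 30 genes together. Of the 30 genes, 20 were higher and 2 lower in macrophages in edgeR (all genes 35.4% and 28.4%, 63.8% in all), with a median log2 of 0.82 against 0.08 for all genes. The oxidation genes gave 7 higher and 2 lower with a median of only 0.17. Acat1, a mitochondrial thiolase of ketone body and isoleucine metabolism, was lower in macrophages in 16 of 16 tags (35.6 to 65.3 CPM against 40.8 to 99.3 CPM, log2 −0.42 ± 0.07, adjusted p = 7.3e-06 in edgeR). Acadl, the long-chain dehydrogenase, was lower in 14 of 16 tags (medians 106 and 133 CPM). Cpt1a, with medians of 153 and 90.7 CPM, and Echs1, with 61.9 and 34.4 CPM, were higher in 16 of 16 tags.

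All 3 efflux genes and all 4 regulators were higher in macrophages than in dendritic cells. Abca1 had 300.2 to 523 CPM in macrophages and 21.6 to 160 CPM in dendritic cells, a 6.61-fold difference without overlap (adjusted p = 8.7e-13 in edgeR). Abcg1 differed less, with 87.2 to 154 CPM in macrophages and 50.4 to 93.6 CPM in dendritic cells, and its ranges overlapped. Apoe was 14.1-fold, Nr1h3 3.97-fold and Pparg 3.04-fold higher. Ppard (0.18) lost its call without any 1 of the libraries, with adjusted p of 0.15, 0.2 and 0.36 in edgeR. Plin2 was 4.61-fold higher, with 549 to 965 CPM against 109 to 254 CPM. Fabp4 was 17.1-fold higher, with medians of 47.3 and 3.27 CPM. Every macrophage tag was above every dendritic tag in 5 of the 30 genes (Slc27a1, Plin2, Lipa, Abca1 and Apoe), as in 4.86% of all genes. The synthetases Acsl1 (log2 −0.14 ± 0.11) and Acsl4 (−0.09 ± 0.07) did not pass.

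Against T cells, in 18 tags, 22 genes were higher and none lower in edgeR (all genes 33.8% and 31.9%, 65.7% in all), with a median log2 of 0.57 against 0.02 for all genes. The macrophage markers summed to 2184 CPM in the T cell class, and Apoe was at 4992 CPM in the class but at 786 CPM in the 588 T cells that met no second gate. Against those cells, in 14 tags, 21 genes were higher and 1 lower (background 32.7% and 28.3%, 61% in all). Lipid gene differences grew, for Lpl from a log2 of 1.52 to 3.72, for Fabp5 from 1.28 to 3.11 and for Plin2 from 1.01 to 2.41. Oxidation genes moved less: Cpt1a went from 0.60 to 0.79, Hadha from 0.16 to 0.22 and Hadhb from −0.10 to −0.11. Acat1 was the gene then lower in macrophages (log2 −0.29, adjusted p = 0.013 in edgeR). Hadha and Hadhb, transcribed away from the shared gap shown above, thus differed in sign here. Hadha passed (adjusted p = 0.014 in edgeR), but not without any 1 of the libraries (0.051, 0.063 and 0.078), and Hadhb did not pass. In B cells with a single gate Plin2 was at 188 CPM and Lpl at 21.3 CPM (medians of 10 tags).

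**Figure D2:**
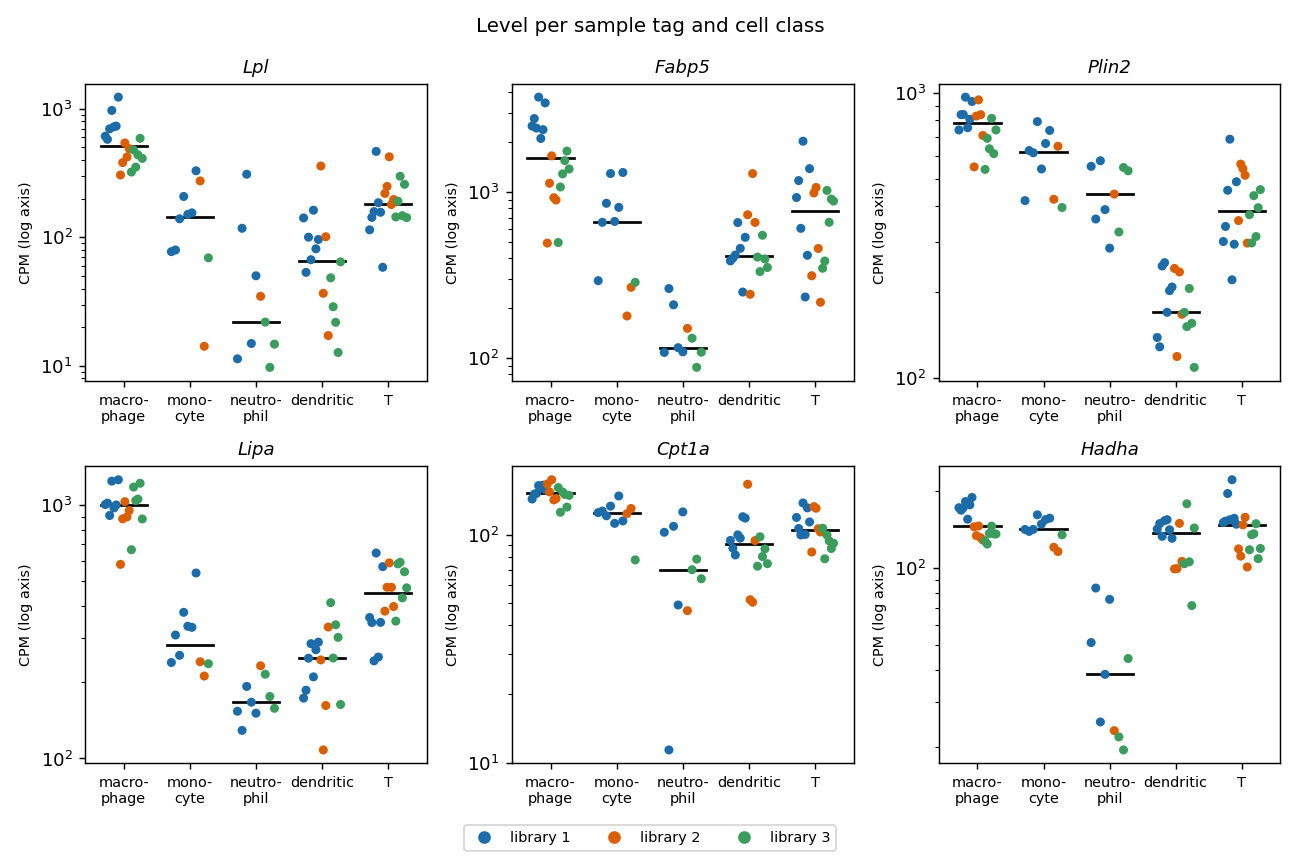
Level of 6 genes in each tag by cell class (CPM, log axis); points are tags, coloured by library, and bars are medians, and the T cell class includes cells that also met the macrophage gate. Lpl has medians of 516 CPM in macrophages and 145 CPM in monocytes, while Cpt1a has medians of 153 and 124 CPM. These medians are over 18 tags for macrophages and 10 tags for monocytes, 7 of the latter from library 1. The 2 classes are therefore not matched by tag here.

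Further genes of the pathways were counted from lists. Of 25 further oxidation genes, 23 were tested against monocytes, and 19 were higher and 3 lower in macrophages (all genes 32% and 31.4%). The counts were 13 higher and 1 lower of 22 against neutrophils (all genes 39.9% and 19.8%), 14 and 3 of 22 against dendritic cells (35.4% and 28.4%), and 13 and 2 of 22 against T cells (33.8% and 31.9%). Hadh, the short-chain hydroxyacyl-CoA dehydrogenase, was among the 3 genes with the largest differences from neutrophils (medians 51.4 and 0 CPM). Slc25a20, the carrier that takes acylcarnitines across the inner membrane between Cpt1a and Cpt2, was lower in macrophages in each of these comparisons. It was named after its values were seen, because it recurred among the few lower genes: its log2 differences were −0.79 against monocytes, −1.96 against neutrophils, −1.76 against dendritic cells and −0.32 against T cells. The 4 comparisons share their macrophages.

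Of 38 further lipid handling genes, 10 were higher and 14 lower of 32 tested against monocytes, where 32% and 31.4% of all genes were, and 16 and 9 of 33 against neutrophils (39.9% and 19.8%). Against dendritic cells 15 were higher and 12 lower of 32 (35.4% and 28.4%), and against T cells 19 and 9 of 33 (33.8% and 31.9%). Cd36, a scavenger receptor and fatty acid transporter, had medians of 566 CPM in macrophages and 197 CPM in monocytes. Dgat1 and Dgat2, which make triglyceride, were lower in macrophages than in neutrophils. Dgat2 had medians of 4.13 CPM in macrophages and 197 CPM in neutrophils, and Dgat1 had 36.0 and 584 CPM. G0s2, an inhibitor of the lipase that opens droplets, had 1.19 CPM in macrophages and 361 CPM in neutrophils (log2 −8.10 ± 0.31, adjusted p = 1.8e-21 in edgeR).

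**Figure D3:**
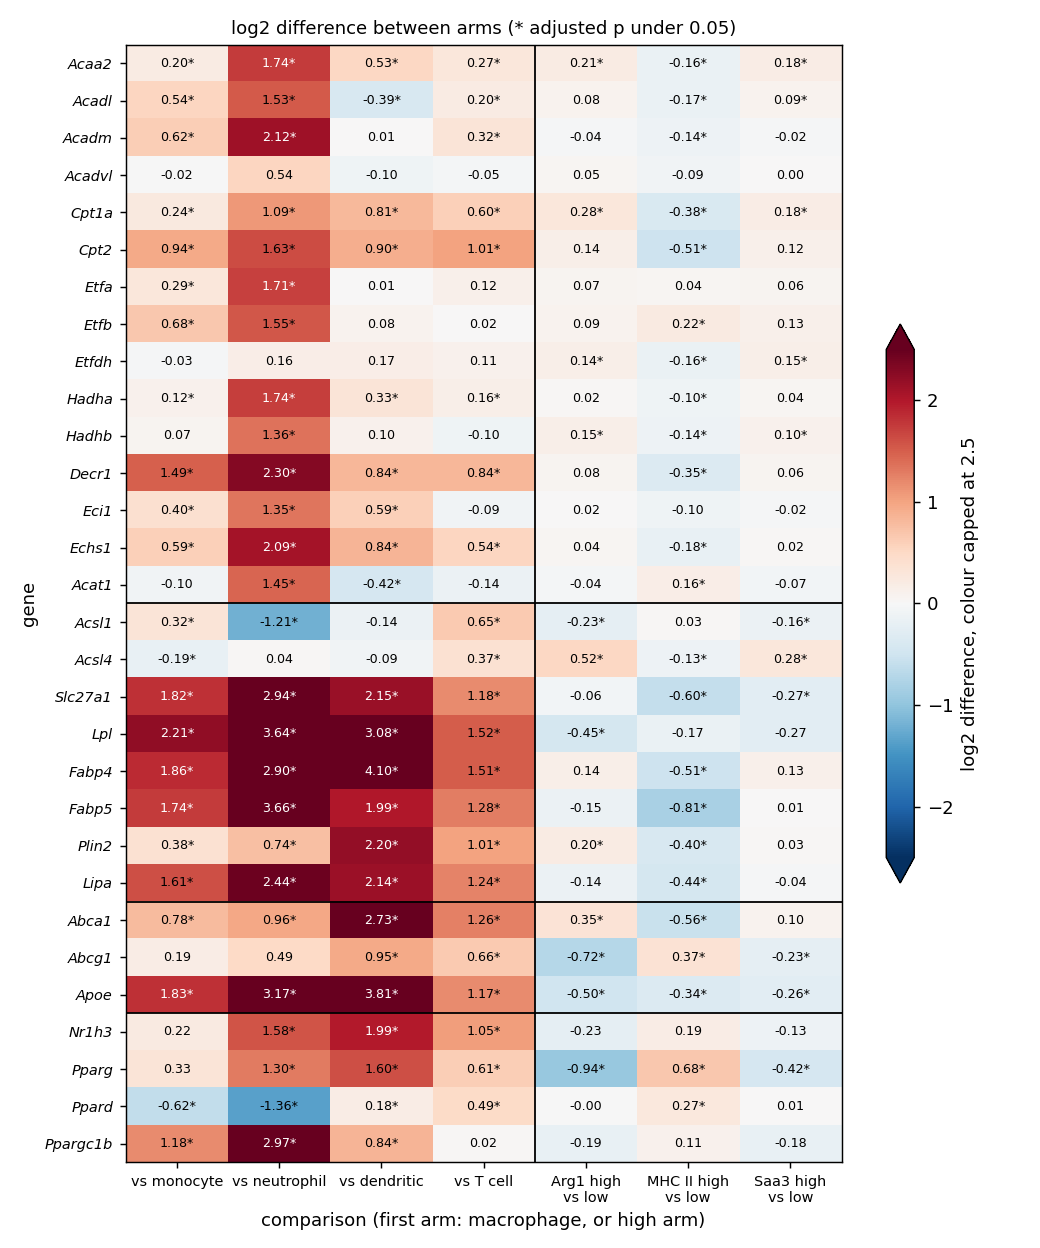
Map of log2 differences for the 30 genes (rows, in role groups) in the 7 comparisons (columns; colour is the log2 difference, capped at 2.5, and asterisks mark an adjusted p under 0.05). Lpl, Fabp5 and Apoe are among the darkest rows against other cell classes, and the splits within macrophages on the right are paler, from −0.94 for Pparg to 0.68 for the same gene.

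Macrophages of each tag were then split by 3 state markers and the arms compared within the 18 tags. The Arg1 split set the upper tertile of cells by share of arginase 1 molecules (4980 cells, with at least 1 molecule) against the lower tertile and its ties (6539 cells). Of the 30 genes, 7 were higher and 5 lower in the Arg1-high arm in edgeR, against 23.3% and 25.1% of 10945 genes (48.4% in all). That share of the members is below the background, and their median log2 was 0.03 against −0.02. Uptake, activation, storage and release genes went both ways (2 higher, 2 lower), as did efflux genes (1 higher, 2 lower).

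Pparg was lower in Arg1-high cells in 18 of 18 tags. It had 8.0 CPM in the lowest tag, 27.3 CPM at the median and 50.7 CPM in the highest, against 31.2, 48.2 and 69.5 CPM in Arg1-low cells (log2 −0.94 ± 0.14, adjusted p = 1.1e-05 in edgeR). The difference was −0.83, −1.32 and −0.81 in libraries 1, 2 and 3. Abcg1 was lower in 17 of 18 tags, with medians of 96.5 and 150 CPM (−0.72 ± 0.11, adjusted p = 1.9e-05 in edgeR). Abca1, the other cholesterol transporter, was higher in 16 of 18 tags, with medians of 462 and 381 CPM (0.35 ± 0.09, adjusted p = 0.0023 in edgeR). Apoe differed by −0.50 ± 0.13 (adjusted p = 0.0031 in edgeR), and by −0.41 (0.073) without library 3.

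Acsl4 was higher in Arg1-high cells in 18 of 18 tags, with 68.1 to 152 CPM against 48.6 to 90.1 CPM (0.52 ± 0.06, adjusted p = 7.7e-07 in edgeR), while Acsl1 was lower (−0.23 ± 0.07, not passing without library 2 or 3). Cpt1a (0.28 ± 0.04), Acaa2 (0.21 ± 0.05), Hadhb (0.15 ± 0.04) and Etfdh (0.14 ± 0.04) were the 4 oxidation genes called higher, and none was called lower. Acadm did not pass, but it was higher in the Arg1-high arm in only 1 of 18 tags (medians 67.2 and 71.7 CPM). Hadhb and Etfdh did not pass without library 2 (adjusted p = 0.06 and 0.1 in edgeR), and Plin2, higher by 0.20 ± 0.06, did not without library 1 (0.09). Lpl differed by library: it was lower overall (−0.45 ± 0.17, adjusted p = 0.034 in edgeR) with 0.00 in library 1, −0.70 in library 2 and −0.77 in library 3. It did not pass without library 2 (−0.35) or library 3 (−0.29). Fabp5, which did not pass, had 0.27, −0.36 and −0.46. Whether these differ between libraries was not tested. Arg1-high cells held more molecules (median 24825 against 15991), fewer dendritic cell markers (54.3 against 161 CPM), fewer monocyte markers (555 against 728 CPM), fewer fibroblast markers (70.0 against 188 CPM) and more cycling genes (242 against 184 CPM, medians over tags), and the part of these in the results was not tested. With cells ordered after thinning to 5000 molecules, 6 genes were higher and 8 lower (background 22.9% and 22.7%, 45.6% in all), with Pparg at −0.87, Abcg1 at −0.68 and Acsl4 at 0.60.

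The split by MHC class II (H2-Aa, H2-Ab1, H2-Eb1 and Cd74), which marks antigen-presenting macrophages, set 5001 cells of the upper against 5001 of the lower tertile. Of the 30 genes, 5 were higher and 18 lower in MHC class II-high cells in edgeR, against 29.3% and 28.1% of 10747 genes (57.4% in all). Their median log2 was −0.15, against 0.00 for all genes. All 23 called genes kept their sign in each library fitted alone. Lower genes came from 3 groups: 10 of 15 in oxidation, 6 of 8 in uptake, activation, storage and release, and 2 of 3 in efflux. No regulator was lower and 2 of 4 were higher.

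Plin2, Abca1, Cpt1a and Cpt2 were lower in MHC class II-high cells in 18 of 18 tags. Abca1 had 253 CPM in the lowest tag, 314 CPM at the median and 450 CPM in the highest, against 335, 482 and 592 CPM in the low arm (−0.56 ± 0.05, adjusted p = 7.0e-10 in edgeR). Plin2 had 431, 628 and 849 CPM against 538, 859 and 1044 CPM (−0.40 ± 0.04, adjusted p = 1.1e-08 in edgeR). Cpt1a had medians of 130 and 163 CPM (−0.38 ± 0.03), and Cpt2 5.35 and 7.64 CPM (−0.51 ± 0.08). Fabp5 had the largest difference of the 30, with medians of 1021 and 1875 CPM (−0.81 ± 0.11, adjusted p = 1.7e-06 in edgeR), and it was lower in 16 of 18 tags. Slc27a1 (−0.60 ± 0.08), Lipa (−0.44 ± 0.06) and Apoe (−0.34 ± 0.06) were lower as well. Differences in the other called oxidation genes were smaller, between −0.35 for Decr1 and 0.22 for Etfb. Fabp4 was lower by −0.51 ± 0.14 over all tags but at −0.11 (adjusted p = 0.64 in edgeR) without library 1. Acadl, Hadha and Echs1 did not pass without library 1 either, Etfb and Etfdh did not without library 2, and Acsl4 did not without library 2 or 3.

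Pparg was higher in MHC class II-high cells in 18 of 18 tags, with 32.4, 49.4 and 74.8 CPM against 12.2, 30.7 and 52.5 CPM (0.68 ± 0.07, adjusted p = 3.0e-08 in edgeR). Abcg1 was higher in 16 of 18 tags (0.37 ± 0.06), and Ppard by 0.27 ± 0.06. Pparg and Abcg1 thus went opposite to Abca1 in both splits, as the plot of paired tags shows. The splits are not independent: 61.3% of MHC class II-high cells were in the Arg1-low arm and 17.5% in the Arg1-high arm. The low arm was deeper (median 26540 against 15934 molecules). The high arm carried more dendritic cell markers (272 against 34.9 CPM) and monocyte markers (1083 against 368 CPM), neutrophil markers (183 against 60.1 CPM) and B cell markers (12.9 against 5.36 CPM) and fewer cycling genes (174 against 283 CPM, medians over tags), and the part of these in the results was not tested. 

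**Figure D4:**
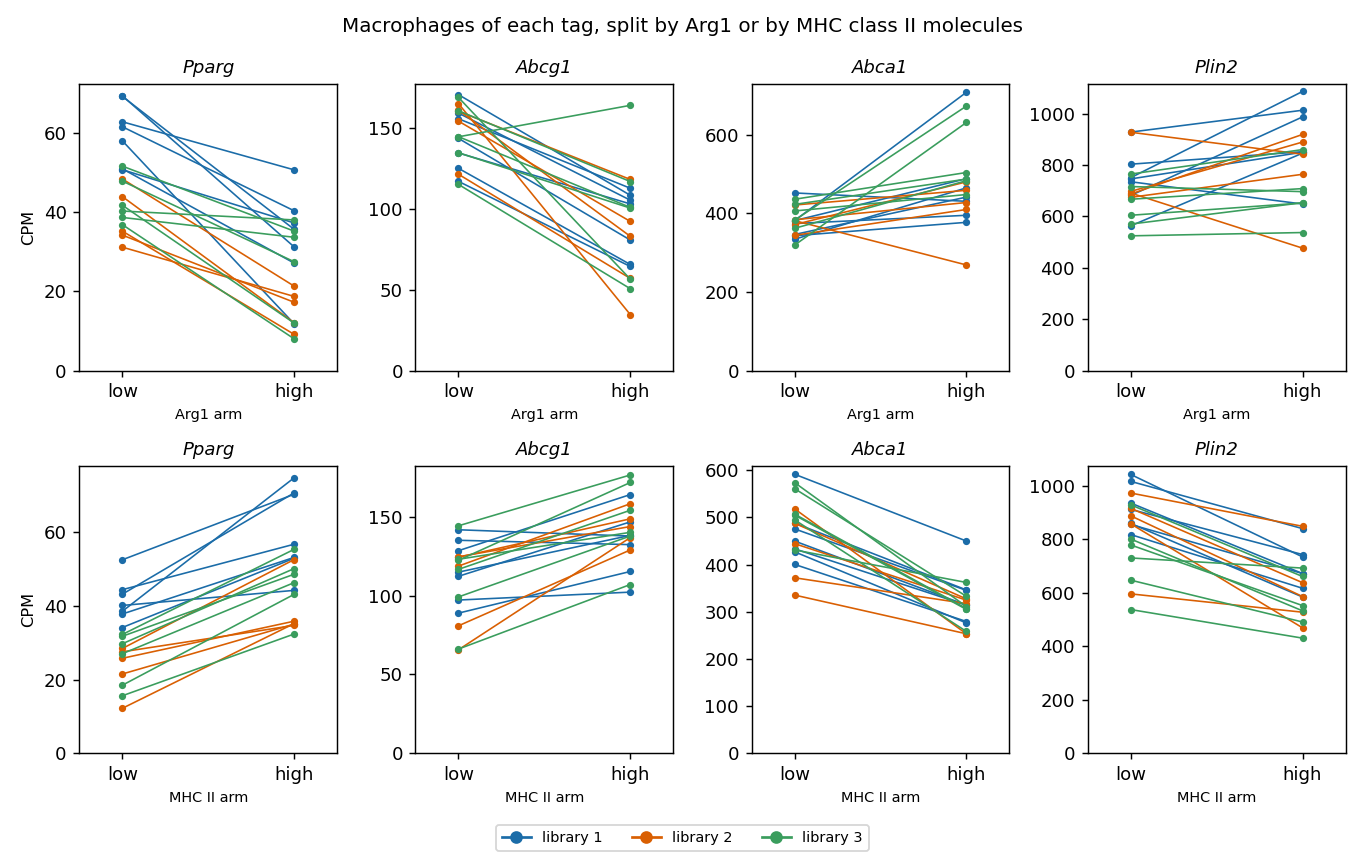
Paired levels (CPM) of 4 genes in the low and high arm of each tag, for the Arg1 split (top) and the MHC class II split (bottom); each line is a tag, coloured by library. Pparg falls in 18 of 18 tags from the Arg1-low to the Arg1-high arm and climbs in 18 of 18 from the MHC class II-low to the high arm, and Abca1 moves the other way in most tags.

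The split by Saa3, an acute-phase serum amyloid A gene of inflamed macrophages, depended on where it was made. Most cells had no Saa3: the high arm held 3683 cells, 2189 of them with 1 or 2 molecules, and the low arm 11133 cells with none. In the high arm 6 of the 30 genes were higher and 5 lower in edgeR (background 15.2% and 15%, 30.3% in all), with a median log2 of 0.02 against −0.01 for all genes. Of these 11 called genes, 9 kept their sign in each of the 3 libraries fitted alone, and Hadhb and Apoe did not. Pparg was lower in 18 of 18 tags (medians 30.9 and 43.4 CPM, −0.42 ± 0.07, adjusted p = 1.4e-04 in edgeR), and Acsl4 was higher (0.28 ± 0.05). The 5 oxidation genes that were higher differed by at most 0.18 (Cpt1a and Acaa2). The count of 11 fell to 6 (4 higher, 2 lower) without library 2, where 12.3% and 7.31% of all genes were called (19.6% in all), and to 5 (3 and 2) without library 3, where 11.2% and 6.56% were (17.8% in all): Acadl, Hadhb, Acsl1, Slc27a1 and Apoe did not pass in either, nor Etfdh without library 3.

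Cells with 10 or more Saa3 molecules, a cut chosen after the data were seen, gave a wider difference from cells with none in 15 tags: 7 genes were higher and 11 lower (background 22.3% and 22.8%, 45.1% in all). Pparg was then at a log2 of −1.52, Lpl at −1.48, Fabp5 at −1.36, Slc27a1 at −1.34 and Abcg1 at −0.94, with adjusted p of at most 5.2e-06 in edgeR. Of the 8 uptake, activation, storage and release genes, 7 were lower and Acsl4 was higher (0.76). None of the 15 oxidation genes was lower, and 5 were higher, led by Acaa2 at 0.50. Ordering cells after thinning called 4 genes higher and 11 lower (background 17.9% and 19.7%, 37.6% in all) and gave the same signs for these lipid genes with smaller sizes, among them Lpl −0.82 and Fabp5 −0.72, while the split at full depth had Fabp5 at 0.01 and Fabp4 at 0.13, neither passing. High-arm cells were deeper at full depth (median 25313 against 19041 molecules) and held fewer dendritic cell markers (76.8 against 119 CPM) and monocyte markers (446 against 665 CPM), whose part was not tested, and the part of depth was not tested further than by this thinning. Of the Saa3-high cells, 52.8% were also Arg1-high.

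**Figure D5:**
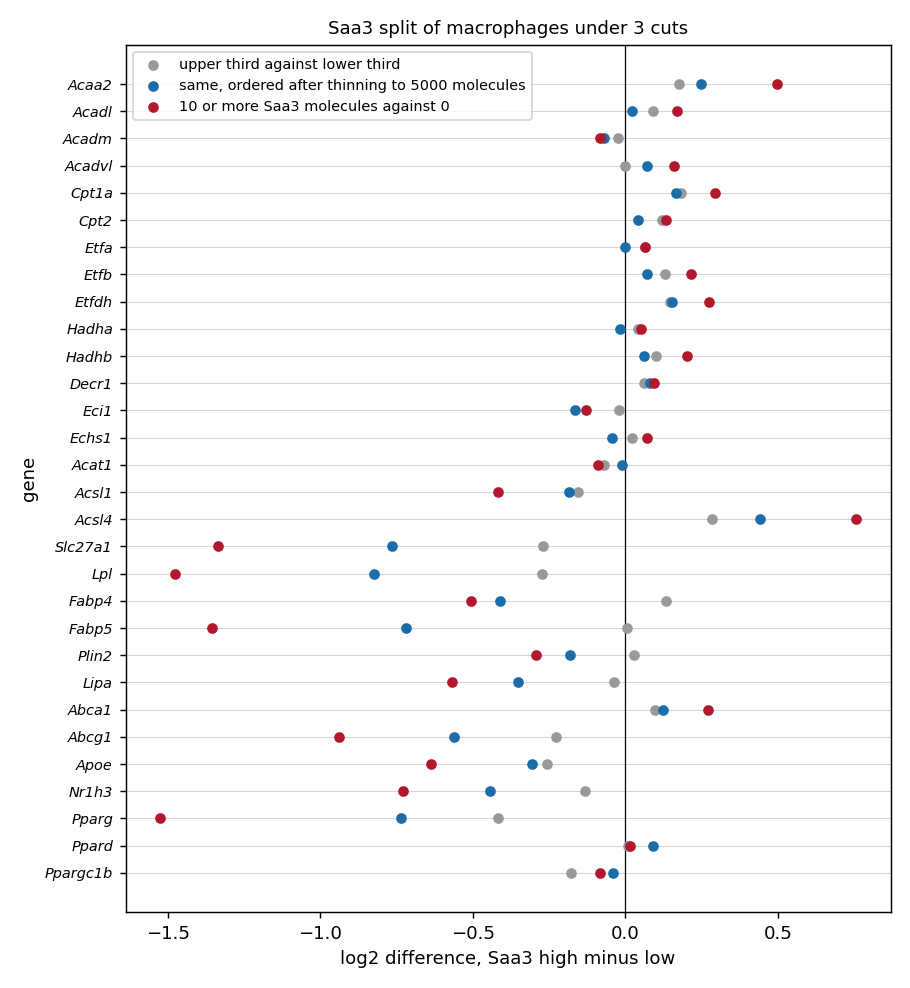
Log2 differences between Saa3-high and Saa3-low macrophages for each gene under 3 cuts (points; colours give the cut). Oxidation genes lie between −0.16 (Eci1) and 0.50 (Acaa2) over the 3 cuts, while Pparg, Lpl and Fabp5 reach −1.52, −1.48 and −1.36 with 10 or more Saa3 molecules against none.

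Among further lipid genes, Hilpda, Cd36, Dgat1, Dgat2 and Acsl3 had some of the largest differences in the 3 splits. Hilpda, a droplet protein induced by hypoxia that inhibits lipolysis, was higher in Arg1-high cells (medians 579 and 165 CPM, log2 1.77 ± 0.11) and in Saa3-high cells (509 and 259 CPM) and lower in MHC class II-high cells (198 and 458 CPM). Cd36 was higher in Arg1-high (0.98 ± 0.09) and lower in MHC class II-high cells (−1.29 ± 0.08). Dgat1 and Dgat2, which make triglyceride, were higher in MHC class II-high cells by 0.93 ± 0.10 and 0.97 ± 0.16. Acsl3 was lower in Arg1-high (−0.74 ± 0.10) and Saa3-high cells (−0.39 ± 0.10) and higher in MHC class II-high cells (0.64 ± 0.09). Of the further oxidation genes, 6 were higher and 4 lower of 24 tested in Arg1-high cells, near or below the 23.3% and 25.1% of all genes. In MHC class II-high cells 3 were higher and 12 lower of 23 (all genes 29.3% and 28.1%), and in Saa3-high cells 3 and 2 of 24 (15.2% and 15%). Of 31 further lipid handling genes tested in each split, 15 were higher and 6 lower in Arg1-high cells, 7 and 13 in MHC class II-high cells, and 11 and 7 in Saa3-high cells.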

How the data were processed

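The authors deposited molecule counts per cell and gene from the BD Rhapsody pipeline (GRCm38, GENCODE M19, per the file headers). Per the file headers, library 1 used release 2.0b1 and enhanced beads with intronic reads kept, and libraries 2 and 3 release 1.10 and original beads. No aligner is named in the sources used here. Cells with fewer than 200 genes (122) were left out. No doublet caller was run, and leaving out cells that met 2 gates was an alternative. Counts were summed per tag and arm (at least 20 cells in both) and tested with edgeR 4.0.16 (R 4.3.3): TMM scaling, filterByExpr, the tag as block because both arms come from 1 tag, the quasi-likelihood F test, Benjamini-Hochberg over all genes, and a threshold of 0.05. DESeq2 1.42.0 was an alternative. The edgeR step was tested on simulated counts. Tags mark biological replicates, per the labels' protocols, but carry no genotype or time here. With the tag as block, the p-values set the difference between arms against how much it varied from tag to tag. All 30 members are reported. Of the other pathway genes, the text names the 3 largest passing differences in each direction with 1 sign in each library fitted alone, and says where a gene was named otherwise. The members and lists were chosen with earlier results of these data known.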

Additional observations from a re-analysis of the deposited data

How the results depend on the processing

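Counts of called members among the 30 stayed within 1.5 times of the reported count under DESeq2, DESeq2 size factors, no low-count filter and at least 50 cells. Leaving out 1 library gave 8 to 23 against monocytes (reported 23), 17 to 25 against neutrophils (26), 18 to 22 against dendritic cells (22), 21 to 23 against T cells (22), 8 to 13 for Arg1 (12), 20 to 23 for MHC class II (23) and 5 to 13 for Saa3 (11). The share of all genes called fell as well. Without library 1 it went from 63.4% to 9.29% against monocytes and from 59.7% to 36.7% against neutrophils. Without library 3 it went from 30.3% to 17.8% for Saa3. The reported fits pair the arms by tag. Without the tag block the Saa3 count was 2, and with 10 or more Saa3 molecules against none, a cut chosen after seeing the data, it was 18 (45.1% of all genes). For the fit without the block, and for other settings given here without a share of all genes, the counts cannot be read as particular to the members. Signs reversed in 7 cases. Etfb against monocytes ranged from −0.090 (without library 1) to 0.83 (without library 2). In the Saa3 split after thinning, Fabp4 was at −0.41, Fabp5 at −0.72 and Plin2 at −0.18, and with 10 or more molecules they were at −0.50, −1.36 and −0.29. The cause was not tested. Neutrophil library 2 and monocyte library 3 alone, with 1 tag each, could not be fitted, and leaving out cells that met 2 gates changes no cell against monocytes or dendritic cells or in the splits, so it was not run there. Neutrophil sums are the thinnest, at a median of 3997 molecules per cell.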
